A study of Mus musculus with 6 samples.

Results

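Abca8a-set fibroblasts of the mouse proximal pulmonary artery were fibroblasts in which the summed transcripts of Abca8a, Svep1, Ogn and Mmp3 outnumbered those of Pi16, Sema3c, Cd248 and Opcml. The members were chosen by these measured values, so the levels of the 8 genes describe the choice and were not tested. They numbered 836 of 15622 kept cells, with 18 in the young male, 2 in the young female, 40 at 20 months, 70 at 24 months, 230 at 27 months and 476 at 28 months. A kept cell was a droplet barcode with at least 500 unique molecular identifiers (UMIs, each standing for 1 captured transcript), at least 300 genes and at most 20% mitochondrial UMIs. A fibroblast had at least 4 UMIs of Pdgfra, Dpt, Clec3b, Col3a1 and Lum together, and more than 2 times its UMIs of Ptprc, Pecam1, Cdh5, Myh11, Msln, Upk3b and Scgb1a1, which mark leukocytes, endothelium, smooth muscle, mesothelium and airway epithelium. There were 1777 fibroblasts: besides the 836 members, 833 had a lead of the Pi16 genes (Pi16-set fibroblasts, the comparison group) and 108 had equal UMIs of both groups.

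The study compared proximal pulmonary arteries of young and old wild-type C57BL/6J mice by single-cell RNA sequencing, and 6 libraries were analysed here, each counted as 1 sample, and how many mice a library holds is not given in the labels. The young group held a male and a female of 3 months. The old group held mice of 20, 24 and 27 months, given by the study as males, and a female of 28 months, and some old mice came from another colony than the young ones. The arteries were taken with surrounding tissue and dissociated with collagenase and elastase, so each library also held cells from outside the vessel wall. Depth differed between the groups. The kept cells had a median of 841 UMIs in the young male, 816 in the young female, 2162 at 20 months, 801.5 at 24 months, 8150 at 27 months and 5465 at 28 months. The 20 young members held 32710 UMIs in all, while the 816 old members held 4301852. Levels are given as CPM, UMIs of a gene scaled to a total of 1000000, and 1 UMI of the young members together equals 30.6 CPM.

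The adventitia is the outer coat of an artery and is rich in fibroblasts, which make its collagen and elastic fibers. In many mouse tissues, fibroblasts with Pi16 and Dpp4 lie in the outer adventitia and fascia, and fibroblasts with Col15a1 lie near small vessels and tissue cells and make more basement membrane components. Of the 4 genes that define the set, Abca8a encodes an ATP-binding cassette transporter of the lipid-transporting subfamily, Svep1 a large extracellular matrix protein with sushi and EGF-like domains, Ogn the small leucine-rich proteoglycan osteoglycin, and Mmp3 the secreted protease stromelysin. Of the 4 on the other side, Pi16 encodes a secreted peptidase inhibitor, Sema3c a secreted semaphorin, Cd248 the stromal surface protein endosialin and Opcml a cell adhesion molecule anchored in the membrane by a lipid.

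The 250 bases before the annotated start of each of the 4 defining genes are shown because these genes carry the set. They are RefSeq sequences of build GRCm38.p6, read 5′ to 3′ on the strand of the gene, and capitals mark matches on either strand. The motifs searched were TATAAA, which positions the start of transcription at some genes, and TGANTCA, which is bound by the Fos and Jun factors.
Abca8a, chr11:110095938-110096187, minus strand: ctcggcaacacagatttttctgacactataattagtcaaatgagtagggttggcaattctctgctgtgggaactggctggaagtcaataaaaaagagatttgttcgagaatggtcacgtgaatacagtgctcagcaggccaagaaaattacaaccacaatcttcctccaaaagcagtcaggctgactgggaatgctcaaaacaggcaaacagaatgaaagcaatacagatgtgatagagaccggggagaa
Svep1, chr4:58206597-58206846, minus strand: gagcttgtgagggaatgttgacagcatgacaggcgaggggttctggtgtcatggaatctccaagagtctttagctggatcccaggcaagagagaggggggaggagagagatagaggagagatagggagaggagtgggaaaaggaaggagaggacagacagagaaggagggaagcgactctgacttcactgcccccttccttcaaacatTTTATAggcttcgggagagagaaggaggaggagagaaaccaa
Ogn, chr13:49607765-49608014, plus strand: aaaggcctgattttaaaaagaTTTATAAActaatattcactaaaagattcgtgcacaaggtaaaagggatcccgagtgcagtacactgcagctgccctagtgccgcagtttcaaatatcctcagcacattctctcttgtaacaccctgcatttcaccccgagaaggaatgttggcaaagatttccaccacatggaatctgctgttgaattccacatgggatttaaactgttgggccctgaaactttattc
Mmp3, chr9:7445572-7445821, plus strand: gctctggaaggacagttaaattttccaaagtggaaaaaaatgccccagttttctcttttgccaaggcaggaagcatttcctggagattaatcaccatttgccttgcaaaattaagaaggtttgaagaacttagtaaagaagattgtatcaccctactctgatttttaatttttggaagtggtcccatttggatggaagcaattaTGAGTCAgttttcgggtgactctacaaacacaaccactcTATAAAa
The Mmp3 window was the only one of the 4 with a TGANTCA match, found as TGAGTCA starting 46 bases before the annotated start, and it also held TATAAA. Of 32536 RefSeq windows of this length, 6.73% held TGANTCA and 12.3% held TATAAA. The Ogn window held TATAAA on both strands in 1 overlapping run, the Svep1 window held it on the opposite strand, and the Abca8a window held neither. The CCAAT and GGGCGG boxes, present in 33.8% and 33.0% of the windows, matched in none of the 4. These matches describe the letters only.

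The lead of the 4 defining genes was wide at 27 and 28 months and narrow in the other libraries. Median transcripts of the 4 defining genes per member were 33 at 28 months, 25 at 27 months, 5 at 24 months, 5 at 20 months, 4 in the young female and 2 in the young male. In the young male 11 of 18 members led by a single UMI, and 2 led by 5 or more. At 28 months 405 of 476 members led by 5 or more, and at 27 months 192 of 230, but 24 of 70 did at 24 months and 12 of 40 at 20 months. Over all libraries 65 members lay just inside the threshold with a lead of 1, and 76 fibroblasts lay just outside it, behind by 1. Of the 108 fibroblasts with equal UMIs, 66 had no UMI of any of the 8 genes, 32 of them in the young male. As to the label, 18 general fibroblast genes summed to 20782 CPM in the young male members and to 49497 CPM in the 2 young female members. They summed to between 36342 and 52092 CPM in those of the old libraries. Young male Pi16-set cells had 31515 CPM, and those of the old libraries between 40051 and 49357 CPM. By the edgeR test described below 2 of the 18 were higher and 7 lower in members than in Pi16-set cells. Without the 27-month and also without the 28-month library 0 of 17 were higher and 5 lower. The cells were dissociated, so their place in the adventitia was not measured.

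By the 8 genes of the rule, whose values chose the cells, members and Pi16-set cells lay along a range. Pi16-group transcripts were present in 683 of 836 members (81.7%), and Pi16 itself in 63.5%. In the 28-month library the median member had 9 Abca8a UMIs, 4 of Svep1, 10 of Ogn, 0 of Mmp3 and 2 of Pi16, and the median Pi16-set cell had 4 of Abca8a, 1 of Svep1, 9 of Ogn, 0 of Mmp3 and 14 of Pi16. The percentage of the 8-gene UMIs that came from the 4 defining genes was spread over the whole scale at 24, 27 and 28 months, with no empty stretch. The lowest bin, under 10%, held 37.9% of such fibroblasts in the young male, 30.8% in the young female and 9.80% at 24 months.

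**Figure D1:**
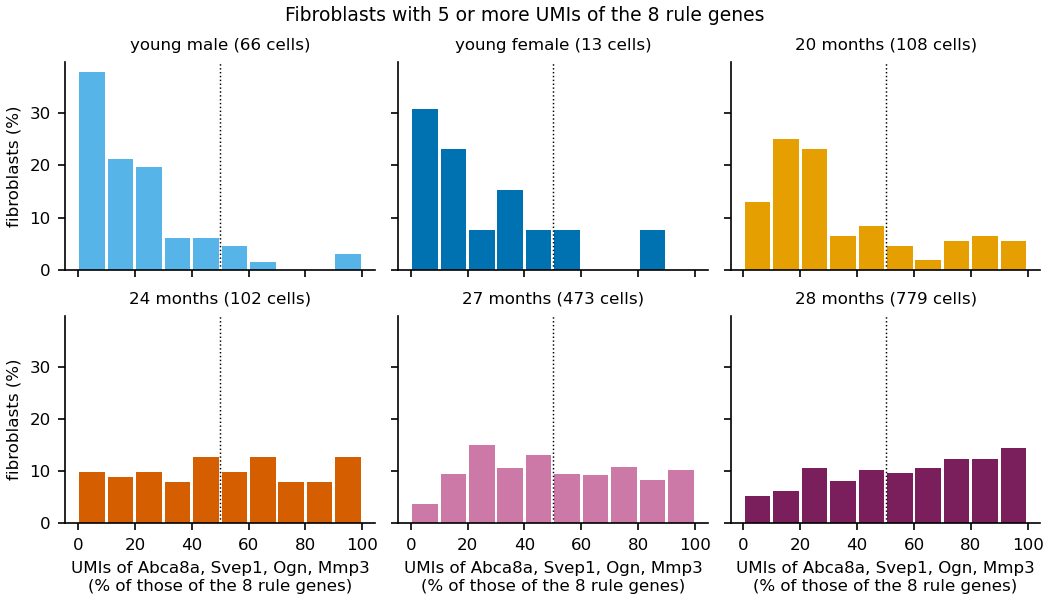
Histograms of fibroblasts with 5 or more UMIs of the 8 rule genes, one panel per library, with the percentage of those UMIs that came from Abca8a, Svep1, Ogn and Mmp3 on the x axis and the percentage of fibroblasts on the y axis. The dotted line at 50% is the threshold. The 66 cells of the young male gather at the left, with 37.9% in the lowest bin, and the cells of 24, 27 and 28 months fill the whole range.

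The 4 defining genes did not contribute alike. Abca8a, summed over the members of a library, was at 730 CPM in the young male, 507 at 20 months, 1861 at 24 months, 1835 at 27 months and 1786 at 28 months. It was at 374 CPM at 20 months and 697 CPM at 28 months in Pi16-set cells, so it was shared by both sets and higher in members in each of these libraries. Mmp3 was at 63.5 CPM in the young male (2 UMIs), 952 at 20 months, 703 at 24 months, 941 at 27 months and 1506 at 28 months. Its UMIs came from a minority of members: 40.4% had 1 at 27 months and 49.2% at 28 months, against 3.26% and 2.09% of cells there with no UMI of the 5 fibroblast genes. Those cells had a UMI of Ogn in 17.8% of cases at 27 months, where free RNA was richest in it. Ogn did not separate the sets in every library. At 20 months it was at 747 CPM in members and 1093 CPM in Pi16-set cells, and in the young male at 635 and 743 CPM. Svep1 was at 127 CPM in the young male, 133 at 20 months, 513 at 24 months, 574 at 27 months and 1082 at 28 months. The 2 young female members together had 1 UMI of Abca8a, 1 of Svep1, 6 of Ogn and none of Mmp3.

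A larger share of fibroblasts fell in the Abca8a set in each old library than in either young one. The share was 13.4% in the young male (18 of 134, 95% exact interval 8.16 to 20.4%) and 8.70% in the young female (2 of 23, 1.07 to 28.04%). It was 28.2% at 20 months (40 of 142, 20.9 to 36.3%), 44.0% at 24 months (70 of 159, 36.2 to 52.1%), 46.3% at 27 months (230 of 497, 41.8 to 50.8%) and 57.9% at 28 months (476 of 822, 54.4 to 61.3%). These intervals cover counting error only. Young libraries averaged 11.1% ± 3.35 (SD, n = 2), and old libraries 44.1% ± 12.2 (SD, n = 4). The difference of 33.0 percentage points had a two-sided exact permutation p of 0.133, the smallest that 15 possible splits of 2 against 4 libraries allow. The shares are made from UMIs of the 8 rule genes, so the difference restates the levels of those genes and is no separate evidence. The study names Mmp3 among the senescence genes raised in old fibroblasts of the same series, so the rule was not independent of age.

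Thinning every cell to 1 depth changed these shares. With every cell thinned to 500 UMIs before the rule was applied, the shares were 14.9% in the young male, 21.4% in the young female, 21.4% at 20 months, 50.6% at 24 months, 39.4% at 27 months and 52.6% at 28 months. The 20-month library then equalled the young female, the groups no longer stood apart, and the difference was 22.8 percentage points (exact permutation p = 0.267). With Mmp3 also left out of the rule it was 16.6 points (exact permutation p = 0.400), and 20 months, at 14.3%, lay below both young libraries. The young male, the young female and the 24-month library shared many barcodes (156 between the young libraries, where chance gives 0.375, and 131 and 215 between each of them and 24 months, where chance gives 1.15 and 0.395). In all, 682 kept cells had a barcode that was also kept in another library, 6 of them members. Within these 3 libraries of similar depth the share was 13.4% and 8.70% in young against 44.0% at 24 months. Without the shared barcodes it was 11.8%, 9.09% and 44.3%.

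**Figure D2:**
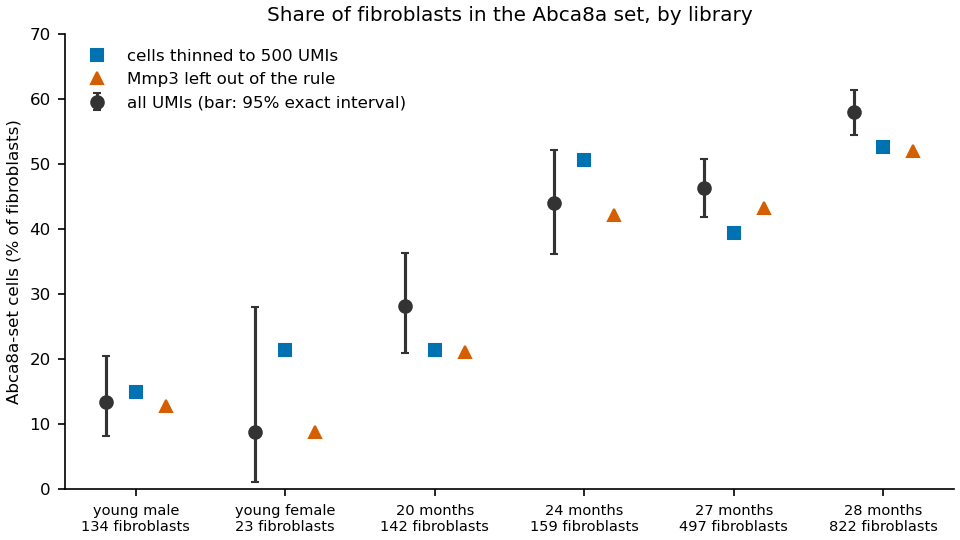
Percentage of fibroblasts in the Abca8a set (y axis) for each library (x axis, with its number of fibroblasts), with all UMIs (circles, bars are 95% exact intervals), with cells thinned to 500 UMIs (squares) and with Mmp3 left out of the rule (triangles). Circles of the 4 old libraries lie between 28.2 and 57.9%, above both young libraries, and the squares of the young female and of 20 months lie at the same height.

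Fibroblasts of any kind were also a larger share of kept cells in the old libraries. They were 4.92% in the young male, 2.46% in the young female, 11.5% at 20 months, 5.54% at 24 months, 13.1% at 27 months and 20.2% at 28 months (exact permutation p = 0.133). The 24-month library lay closest to the young ones, and how much surrounding tissue each sample held was not measured.

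Markers of other cell types were uneven across members. Mesothelial markers (12 genes, among them Wt1, Upk3b and Msln) reached 2 UMIs in 10 of 18 young male members, with a summed level of 2729 CPM. In the 79 Pi16-set cells of that library they were at 1875 CPM, with 2 or more UMIs in 16. They were at 0 in the young female members, 427 CPM at 20 months, 205 at 24 months, 113 at 27 months and 103 at 28 months. Wt1, a transcription factor of mesothelium, was at 603 CPM in the young male members and at 29.3 CPM or less in those of every old library. Smooth muscle markers (10 genes) were at 8781 CPM in the 20-month members, where Acta2, smooth muscle actin, was the most abundant at 4617 CPM, and 12 of 40 members had 2 or more such UMIs. In the 20-month Pi16-set cells they were at 165 CPM. In the members of the other old libraries they were at 58.6 CPM at 24 months, 469 at 27 months and 296 at 28 months, and 114 of 230 members at 27 months had 2 or more such UMIs, as had 131 of 255 Pi16-set cells. Haemoglobin transcripts were abundant in the 28-month members (22357 Hbb-bs UMIs of 2870902) and at 24 months (1266 of 68236). Relative to these totals the level was higher at 24 months. Pi16-set cells held 13355 of 2508744 at 28 months and 945 of 70535 at 24 months. Members of the other libraries had 10 Hbb-bs UMIs or fewer. Macrophage markers (12 genes) were at 542 CPM in members at 28 months and 355 CPM in Pi16-set cells, but at 58.4 and 170 CPM at 27 months. They were at 349 and 309 CPM in the young male, 133 and 23.6 at 20 months, and 205 and 198 at 24 months. At 28 months 93 of 476 members and 66 of 323 Pi16-set cells had 2 or more such UMIs. Endothelial markers (12 genes) were fewer in members than in Pi16-set cells in 3 old libraries, but not in the young male. There 2 of 18 members and 4 of 79 Pi16-set cells had 2 or more such UMIs, at 286 and 194 CPM. At 20 months 3 of 40 members and 20 of 88 Pi16-set cells had 2 or more such UMIs, at 27 months 18 of 230 and 41 of 255, and at 28 months 21 of 476 and 59 of 323. Summed, they were at 276 and 358 CPM at 20 months, 147 and 156 at 24 months, 68.0 and 135 at 27 months, and 56.8 and 108 at 28 months. Ecscr was 1 of these 12 genes. It held 25 of the 163 endothelial UMIs in members at 28 months and 151 of 271 in Pi16-set cells. At 27 months it held 7 of 85 and 92 of 228, so these sums partly restate its own difference. The part of the other endothelial markers in the lower values of Ackr1, Tek and Thbd in members was not tested. Leaving out fibroblasts with 2 or more mesothelial or smooth muscle UMIs left 7 of 74 fibroblasts in the set in the young male (9.46%) and 28 of 114 (24.6%) at 20 months, while 28 months had 57.6%. The 20-month library, from a male by the study's account, had 78 Xist UMIs and 7 Ddx3y UMIs among the 112405 UMIs of its members. The 28-month female had 2689 and 0 among 2870902 UMIs, and the 27-month male had 0 and 320 among 1250309. The counts are to be read against these unequal totals.

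Genes outside the rule differed widely between members and Pi16-set cells of the same library. Members were higher in Apoe, Fgl2, Steap4, Col15a1 and Bmper and lower in Igfbp5, Cd55, Thy1, Sema3e, Has2 and Basp1. UMIs were summed per library and set, and edgeR's quasi-likelihood test with the library as a block was run on 5 libraries (the young female, with 2 members, was left out). Of 7046 genes tested outside the 20 rule genes, 792 (11.2%) passed an adjusted p under 0.05, 417 higher (5.92%) and 375 lower (5.32%) in members. All differences below are log2 fold changes of members against Pi16-set cells, levels are CPM on normalised library sizes, and adjusted p-values are over all genes of this test. The libraries of 27 and 28 months carried most of the counts. Without the first 246 of 4495 tested genes passed, 109 higher and 137 lower. Without the second 217 of 4502 passed, 102 higher and 115 lower. With DESeq2 387 of 7046 passed, 199 higher and 188 lower. The counts per list given below for these alternatives are to be read against those of all genes. Without the library block 40 passed, and 176 of 1661 with cells thinned to 500 UMIs, 71 higher and 105 lower.

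Apoe, the apolipoprotein that carries lipids, was at 1663 CPM in young male members and 539 in Pi16-set cells, 4974 and 845 at 20 months, 544 and 182 at 24 months, 1882 and 377 at 27 months, and 2664 and 436 at 28 months. Members were higher in all 5 libraries, with a log2 fold change of 2.28 ± 0.18 (SE, edgeR adjusted p = 6.8e-13), although levels of both sets overlapped between libraries. Fgl2, a secreted fibrinogen-like protein, lay between 60.5 and 396 CPM in members and between 0 and 46.2 in Pi16-set cells, without overlap (2.59 ± 0.18). Its lowest values, in the young male, stand for 2 UMIs in members and 0 in Pi16-set cells. Col15a1, a collagen of the basement membrane zone, was at 121, 128, 204, 141 and 143 CPM in members from the youngest library to the oldest, and at 51.3, 50.4, 33.0, 33.5 and 35.8 CPM in Pi16-set cells (1.96 ± 0.18). No Col15a1 value of members overlapped one of Pi16-set cells, but the young male values stand for 4 UMIs in each set. Steap4, a metalloreductase, was at 30.2 CPM in young male members and 25.7 CPM in Pi16-set cells. These stand for 1 and 2 UMIs, too few for a direction. At 28 months Steap4 was at 202 and 41.5 CPM (2.51 ± 0.19). Bmper, a secreted modulator of bone morphogenetic protein (BMP) signals, had a log2 fold change of 2.32 ± 0.22 and was at 306 CPM in members at 24 months, its highest value.

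The genes that were highest in members by the naming rule also included Tmem176a and Tmem176b, adjacent genes of a transmembrane protein family expressed in myeloid cells (2.88 ± 0.47 and 2.74 ± 0.43), Col23a1 (2.69), the amine oxidase Aoc3 (2.54), Spry1, an inhibitor of receptor tyrosine kinase signals (2.37), Col6a6 (2.37), the fatty acid binding protein Fabp4 (2.31), Ccl19, a chemokine that attracts dendritic cells and T cells (2.27), Lsamp (2.20) and Phkg1 (2.08). Tmem176b was at 605 CPM in young male members, above the 136 to 310 CPM of the old libraries, and at 398 CPM in young male Pi16-set cells. Its edgeR adjusted p was 0.0117, and 0.078 with cells of at least 1000 UMIs and 500 genes only. Phkg1 was highest in the 20-month members, at 171 CPM, with 34.0 CPM or less in members of the other libraries. In the young male Col23a1, Spry1, Lsamp and Phkg1 had 1 UMI in members and 2 in Pi16-set cells. Aoc3 had 1 and 0 there. These are too few for a direction in that library.

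Igfbp5, a secreted binding protein of insulin-like growth factors, was at 3719 CPM in young male members, 973 at 20 months, 2498 at 24 months, 2109 at 27 months and 1033 at 28 months. In Pi16-set cells it lay between 9659 and 14246 CPM, so the sets did not overlap, and the log2 fold change was -2.69 ± 0.43 (edgeR adjusted p = 0.0178). Cd55, which protects cells from complement, was at 635 CPM in young male members and 744 in Pi16-set cells, but at 53.5 and 542 at 20 months, 115 and 832 at 27 months, and 107 and 821 at 28 months (-2.44 ± 0.40). Its neighbour Cd55b is a close copy, so reads may have been split between them. Thy1, a surface protein of many mesenchymal cells, was at 51.7 CPM or less in members and at 89.8 CPM or more in Pi16-set cells (-2.35 ± 0.17). Sema3e, a secreted semaphorin that acts on vessels through plexin D1, had the lowest log2 fold change of the named genes, -3.81 ± 0.29, with no UMI in members of the young male and 20-month libraries and 51.0 CPM at 24 months. Has2, which makes hyaluronan, was lower in members in all 5 libraries (-2.25 ± 0.23), by little at 24 months, with 153 CPM against 182.

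Other genes that were lowest in members were the Wnt modulator Dact2 (-2.92), Ecscr (-2.90), the BMP family ligand Bmp3 (-2.76), Aif1l (-2.75), the sulfotransferase Chst1 (-2.47), Efhd1 (-2.46), the membrane protein Basp1 (-2.43), the ligand Wnt10b (-2.38), the chemokine-binding receptor Ackr1 (-2.27) and the adhesion molecule Cadm3 (-2.21). Ecscr, an endothelial marker, had 25 UMIs in members and 151 in Pi16-set cells at 28 months, and 92 in Pi16-set cells against 7 in members at 27 months. Dact2 was between 116 and 129 CPM in the Pi16-set cells of every library, and at 18.0 CPM or less in members. In the young male Bmp3, Wnt10b and Ackr1 had 0 UMIs in members and 1 in Pi16-set cells, too few for a direction there.

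**Figure D3:**
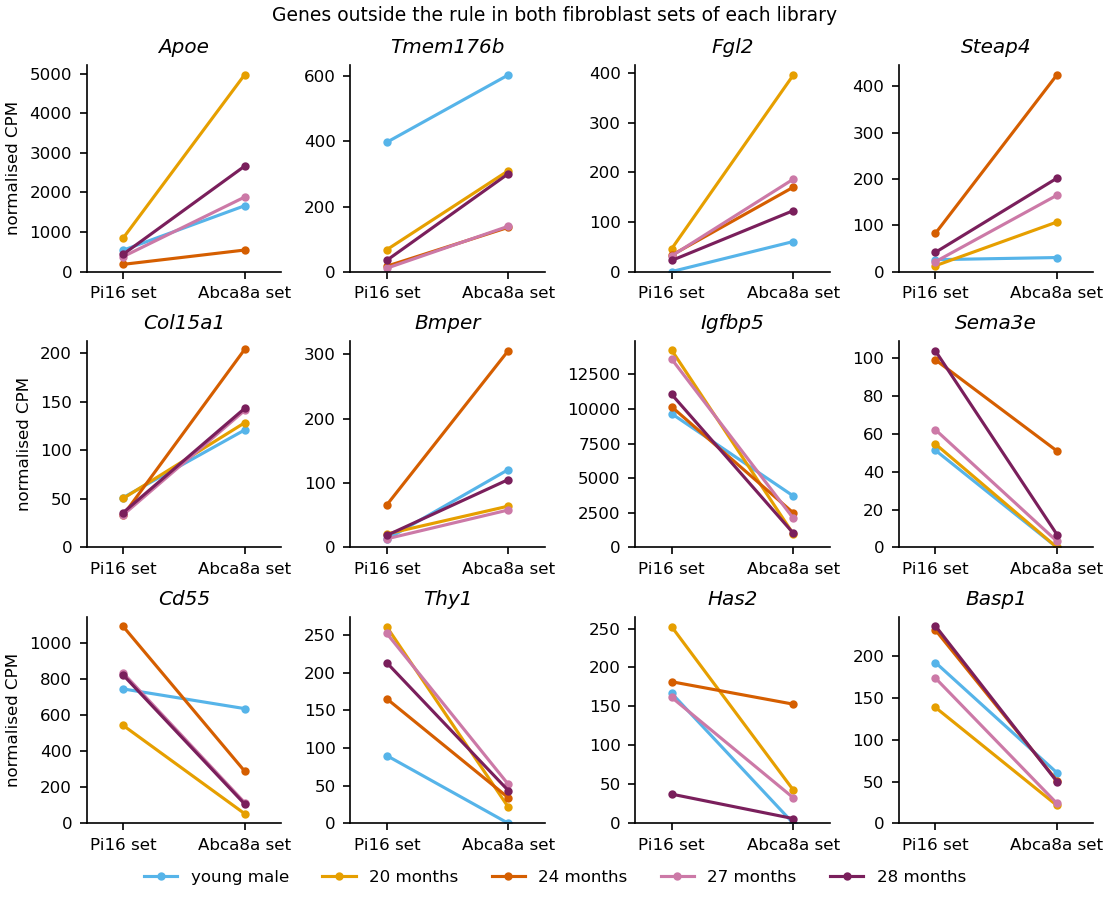
Normalised CPM of 12 genes outside the rule (y axis, from 0, own scale per gene) in Pi16-set and Abca8a-set cells (x axis) of 5 libraries, with a line joining both sets of a library. The values of the first 6 genes lie higher in Abca8a-set cells in all 5 libraries and those of the last 6 lower in all 5, by little for Steap4 and Cd55 in the young male. The young male Steap4 values stand for 1 and 2 UMIs and show no direction.

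Most tested genes known from the Pi16 and Dpp4 state were lower in members, and most of those known from Col15a1 fibroblasts were higher. Of 25 tested genes of the Pi16 Dpp4 list, 21 were lower and none higher, and their median was -1.45 on the log2 scale, where that of all genes tested was -0.0036. Dpp4, a serine protease at the cell surface, was at 74.9 to 221 CPM in members and 224 to 448 CPM in Pi16-set cells (-1.52 ± 0.19). The others included Procr (-1.83), the chemokine scavenger Ackr3 (-1.33), the receptor tyrosine kinase Axl (-1.13) and fibronectin, Fn1 (-0.92). Of 25 tested genes of the Col15a1 list, 18 were higher and none lower, with a median of 1.24. Among them were Cxcl12, a chemokine that holds leukocytes and stem cells in place (1.14 ± 0.23), Igf1 (1.51 ± 0.19), Gdf10 (1.91), the complement component C7 (1.503), Penk (1.24) and Lpl, lipoprotein lipase (1.18). Abca9, Abca6 and Abca8b, relatives of Abca8a in the same gene cluster, did not pass, at 0.51, 0.39 and 0.32. These lists were written from what is known of fibroblast states, with earlier results of these data known, and the rule genes themselves were not counted. The sets were split on Pi16, Sema3c, Cd248 and Opcml, so genes that vary with those differ between the sets through the choice of cells. These counts describe that choice and are no separate evidence for the sets. With cells thinned to 500 UMIs, 19 of 23 and 9 of 13 tested genes of these lists passed in the same directions. Several genes stand in more than 1 of the lists described here.

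Lipid, retinoid and detoxification genes were mostly higher in members. Of 28 tested, 16 were higher and 1 lower, with a median of 0.64. Those higher included Fabp4 and Apoe, the antioxidant enzyme Gpx3 (1.79), the monooxygenase Fmo2 (1.79), the methyltransferase Inmt (1.65), the carboxylesterase Ces1d (1.61), the retinol carrier Rbp4 (1.35) and Aldh1a1, which makes retinoic acid (1.08). Aldh1a3, with the same reaction, was the one lower (-1.58). Fmo2 was at 151 CPM in young male members and 1143 at 28 months, and at 89.8 and 220 CPM in the Pi16-set cells there. Inmt had no UMI in young male members and was at 1167 CPM at 27 months. Without the 28-month library 7 of 22 tested genes of this list were higher, and 7 of 22 without the 27-month library. Adipocyte markers (8 genes) also had higher summed levels in members than in Pi16-set cells at 20, 27 and 28 months. On the deposited totals they summed to 169 CPM in members and 13.5 in Pi16-set cells at 20 months, 516 and 23.1 at 27 months, and 183 and 41.1 at 28 months. In the young male they had 3 UMIs in members and 4 in Pi16-set cells, and at 24 months 5 and 2 (73.3 and 28.4 CPM). These are too few for a direction, as are 0 and 2 in the young female. The most abundant was Fabp4, which also stands in the lipid list, at 20 and 28 months, and at 27 months Car3, with 309 UMIs there and a UMI in 1.67% of all members. Over all libraries Car3 had 345 UMIs in members and 17 in Pi16-set cells, Cfd 264 and 11, Cidec 36 and 1, Plin1 20 and 1, Adipoq 10 and 1, Ucp1 6 and 0, and Lep had none in either. Their part in the lipid genes was not tested.

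Basement membrane genes differed in both directions. Of 18 tested, 8 were higher and 2 lower, with a median of 0.53. The type IV collagen chains Col4a1 (0.80), Col4a2 (0.59), Col4a4 (0.51), Col4a5 (0.86) and Col4a6 (1.498) were higher, with Nid2 (1.39), Smoc2 (1.11) and Col15a1. The laminin chain Lamb1 (-0.67) and Nid1 (-0.93), both linkers or network proteins of the same membrane, were lower. Nid1 was at 212 CPM in young male members against 1206 in Pi16-set cells, and at 835 against 1227 at 28 months. With cells thinned to 500 UMIs 1 of 11 was higher and 1 lower, without the 27-month and also without the 28-month library 4 of 15 were higher and 1 lower, and with DESeq2 5 of 18 were higher.

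Elastic fiber genes divided almost evenly. Of 18 tested, 6 were higher in members and 5 lower, with a median of -0.17. Higher were elastin, Eln (0.71 ± 0.20), the crosslinking enzyme Lox (1.68), and the fiber-associated proteins Mfap4 (1.48), Emilin1 (0.92), Fbln1 (0.83) and Mfap2 (0.60). Lower were Fbn1, fibrillin of the microfibril scaffold (-1.85 ± 0.19), Mfap5 (-1.55), the Lox relatives Loxl2 (-1.17) and Loxl1 (-0.77), and Efemp1 (-0.77). Without the 28-month library 2 of 16 were higher and 2 lower, and with DESeq2 3 of 18 each. Fbn1 was lower in members in all 5 libraries, with 212 against 988 CPM in the young male and 999.6 against 3373 CPM at 28 months. Eln was higher in members in 4 of the 5, with 1100.2 against 636 CPM at 27 months, and was at 60.5 against 244 CPM in the young male.

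Of 13 fibrillar, FACIT and related collagens tested, 2 were higher (Col23a1 and Col6a3, 0.62) and 2 lower (Col12a1, -1.78, and Col14a1, -1.23). Without the 28-month library 0 of 12 were higher and 2 lower. The major collagen I chains differed little, with Col1a1 at -0.0020 and Col1a2 at 0.05, and neither passed. Among 8 small leucine-rich proteoglycans 4 were higher, Epyc (1.47), Podn (1.22), Bgn (0.65) and Ecm2 (0.49), and Aspn was lower (-0.79). None of the 4 proteoglycans passed with DESeq2, and none of 5 tested was higher without the 27-month or without the 28-month library. Chondrocyte markers (8 genes) had higher summed levels in members than in Pi16-set cells, on the deposited totals, at 20 months (409 and 94.5 CPM), 27 months (342 and 53.2) and 28 months (86.0 and 26.3), and nearly the same at 24 months (44.0 and 42.5). Most UMIs were of Cytl1 (479 and 159), with 132 and 3 of Cnmd and 9 and 1 of Col2a1, and Matn1 had none in members. Cytl1 was tested and did not pass by edgeR (1.79, adjusted p = 0.109) but passed with DESeq2, and the part of these markers in the matrix genes was not tested. Of 27 matrix proteases and inhibitors tested, 5 were higher and 5 lower. Adamtsl2, which binds microfibrils, had the highest value (2.10), and Adamts5, a protease of proteoglycans, the lowest (-1.26). Of 24 tested, 0 were higher and 3 lower without the 27-month and also without the 28-month library, and with DESeq2 1 was higher and 3 lower.

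Secreted signals differed in both directions. Among the 25 tested genes of a list of Wnt, BMP and transforming growth factor (TGF) beta modulators, which does not hold Bmper, Bmp3, Wnt10b or Dact2, 8 were higher and 7 lower. The Wnt inhibitor Sfrp1 was at 30.2 CPM in young male members, 353 at 20 months, 493 at 24 months, 444 at 27 months and 528 at 28 months, and between 89.8 and 165 CPM in Pi16-set cells, so members were higher in the 4 old libraries (2.07 ± 0.20), while the young male value is that of 1 UMI and shows no direction. Also higher were Gdf10, Dkk3 (1.13), Chrdl1 (1.03), Tgfb3 (0.97), Rspo1 (0.91), Bmp4 (0.79) and Wnt5a (0.61). Lower were Bmp6 (-2.36), Wnt2 (-2.08), Wnt9a (-1.32), Bmp2 (-1.08), Nbl1 (-0.82), Sfrp4 (-0.79) and the receptor Tgfbr2 (-0.69). The median was 0.24, but without the 28-month library it was -0.085, with 2 of 19 higher and 2 lower, and without the 27-month library -0.13. Of 18 growth factors and binding proteins, 8 were higher (4 of 15 without the 28-month library), among them Mdk (2.61), Gas6, the ligand of Axl (1.93), Angpt1 (1.40) and Vegfc (1.31), and 3 were lower, Igfbp5, Fgf2 (-1.46) and Igfbp6 (-1.08). Gas6 lay between 272 and 786 CPM in members and between 99.1 and 218 CPM in Pi16-set cells.

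Of 10 complement genes tested, 4 were higher, Clu (1.51), C7 (1.503), C4b (1.43) and Colec12 (1.07), and Cd55 was lower. C3 did not pass (0.22). Of 15 chemokines, cytokines and decoy receptors, 4 were higher (Ccl19, Cxcl12, Tnfsf13b at 1.08 and Cxcl16 at 0.93) and 2 lower (Ackr2 at -3.05 and Ackr3). Of 25 receptors, 5 were higher, Ntrk2 (1.29), Ednra, an endothelin receptor (1.22), Lifr (1.19), Il11ra1 (1.10) and Il1r1 (0.87), and 8 were lower, among them Tek (-1.46), Thbd (-1.31), Ddr2, a collagen receptor (-1.01), and Fgfr1 (-0.72). Among 37 transcription factors tested, Gata4 (1.20), Nr2f2 (0.81), Peg3 (0.79), Nfib (0.62), Runx1t1 (0.51) and Gata6 (0.47) were higher, and Creb5 (-1.49) and Klf4 (-0.81) lower. Of 32 immediate early and heat shock genes 5 were higher and 1 lower. Of 35 interferon response genes 3 were higher and 1 lower, about the share of all tested genes that passed (11.2%). Without the 28-month library 1 of 32 immediate early and heat shock genes and 0 of 21 interferon response genes were higher. So were 1 of 12 chemokines and cytokines, 3 of 20 receptors and 1 of 25 transcription factors. Of all 4502 genes tested without that library 102 were higher.

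Of the matrix turnover genes that the study names for fibroblasts and smooth muscle, 8 were tested, and Adamts12 was higher (0.52) and Bmp6 and Ntn4 (-1.23) lower in members. None was higher with DESeq2, without the 27-month library or without the 28-month library. Of 17 tested senescence-associated genes it names, 5 were higher, Vegfc, Cxcl12, Fas (1.06), Igfbp7 (0.86) and Serpine2 (0.56), and 4 lower, Igfbp5, Axl, Igfbp6 and Timp2 (-1.05). Without the 28-month library 1 of 14 was higher and 4 lower. The cell cycle inhibitor Cdkn1a had a log2 fold change of -0.011 and did not pass. The study drew these genes from the same samples, in a comparison of ages, not of sets.

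Contractile and smooth muscle genes were higher in members in part. Lmod1 passed (2.01), as did Synpo2 (0.53) and the matrix protein Postn (0.94), while Acta2 (1.78 ± 1.63) and Tagln (1.55 ± 1.46) did not, with Acta2 at 5552 CPM in the 20-month members, 0 at 24 months and 77.1 at 28 months. The part of the 20-month smooth muscle transcripts in these values was not tested. Without that library 654 genes passed.

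**Figure D4:**
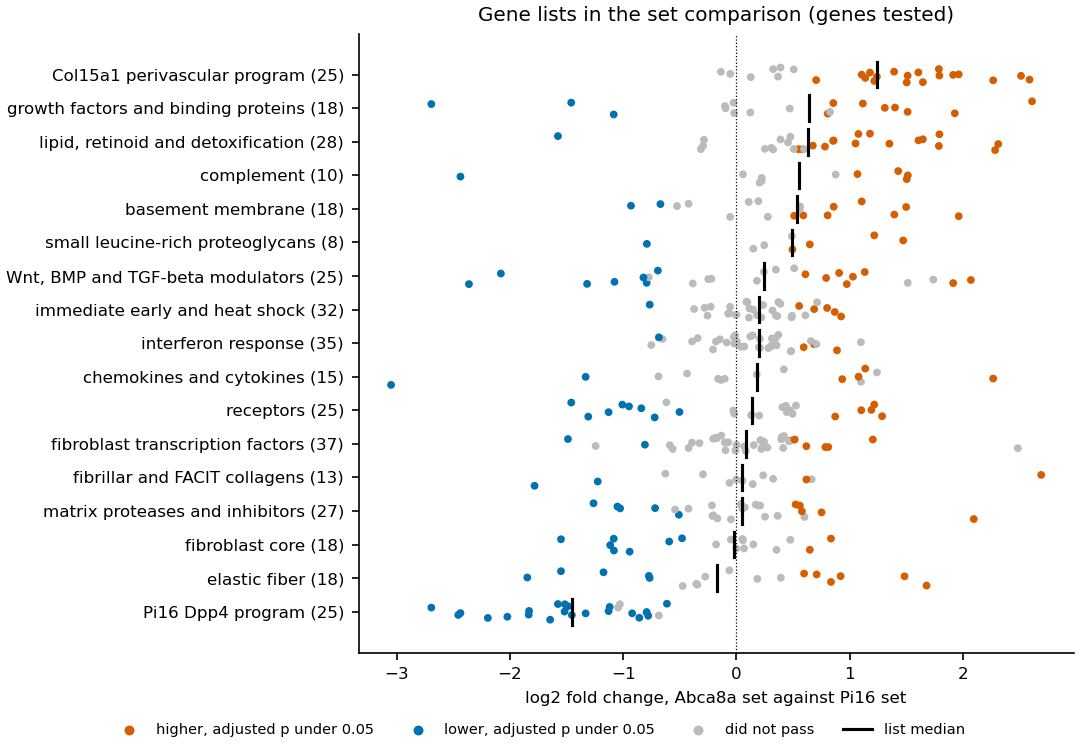
Log2 fold change of Abca8a-set against Pi16-set cells (x axis) for each tested gene of 17 gene lists (y axis, number tested in parentheses), with genes higher at an adjusted p under 0.05 in orange, lower in blue and others in gray. Black bars are list medians, which run from -1.45 for the Pi16 Dpp4 list to 1.24 for the Col15a1 list, and the dotted line is the median of all genes tested.

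Members of 1 library also differed from each other. Cells of the 27-month (209) and 28-month (421) libraries with at least 2000 UMIs were thinned to that depth, and the variance of UMIs per cell was divided by the mean, a ratio near 1 for counting noise alone and larger for genes with a high mean. Over 270 listed genes with a mean of at least 0.1 UMI the median ratio was 1.58 at 27 months and 1.57 at 28 months. Igfbp5 had the highest ratios of both, 18.7 and 12.9, with a UMI in 46.4% and 33.0% of members. It was as uneven in Pi16-set cells, with ratios of 24.1 and 22.9. Eln was found in 60.8% and 46.6% of members, with ratios of 6.43 and 6.28, and Apoe in 69.4% and 74.6%, with ratios of 5.98 and 9.10. Gsn, gelsolin, which severs actin, was found in 99.5% of members of both libraries, with ratios of 15.01 and 12.003. C3 (3.90 and 7.33), Fn1 (4.10 and 3.75) and Dcn, decorin (10.6 and 5.91), also stood above the median. In Pi16-set cells of the same libraries the ratios of Eln were 5.39 and 6.02 and those of Apoe 4.68 and 8.91, so this variation was found in both sets. Fabp4 differed between libraries, with a ratio of 17.9 at 27 months, where 4.78% of members had a UMI, and 3.69 at 28 months, where 14.01% did.

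**Figure D5:**
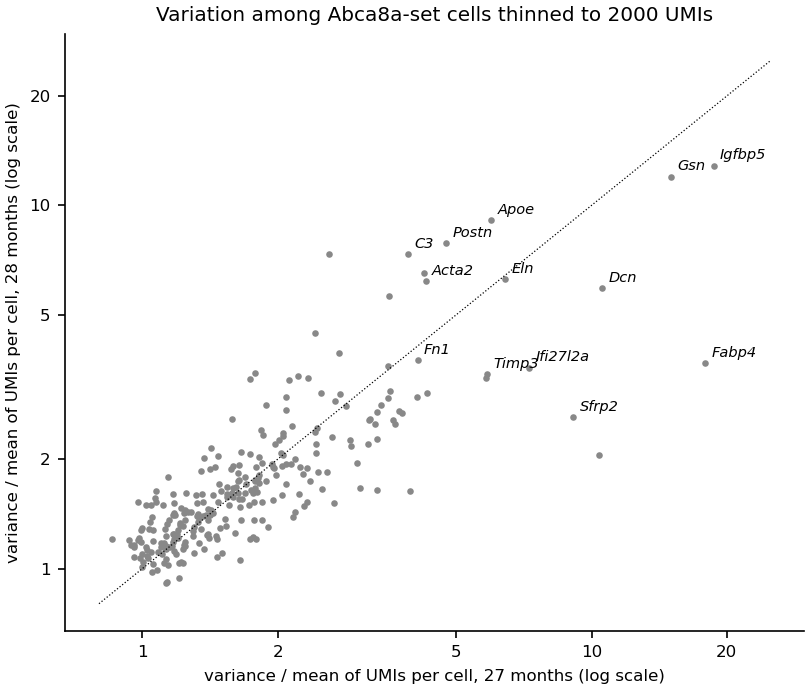
Variance divided by mean of UMIs per Abca8a-set cell at 27 months (x axis) and 28 months (y axis), both on log scales, for 270 listed genes after thinning each cell to 2000 UMIs. The dotted line marks equal ratios. Igfbp5 and Gsn lie high on both axes, and Fabp4 and Sfrp2 lie well to the right of the line.

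Only 1 young library had at least 5 members, the minimum set for a test of old against young members across genes, so values are given here without one. In this paragraph CPM are on the deposited totals, not on normalised library sizes. With libraries of any number of members, 6 of 7363 genes passed (edgeR), all lower in old, and that fit rests on the 18 and 2 members of the young libraries. No gene passed as higher in old members, so none of the higher old values below is a tested difference. Gsn was at 2951 CPM in the young male (93 UMIs) and 11745 in the young female (14 UMIs), and both together were at 3271 CPM (95% exact Poisson interval 2681 to 3953). In old libraries it was at 13683, 11563, 19950 and 15154 CPM from 20 to 28 months, all above that interval. The young female value, from 2 cells, lay within the old range. Sfrp1 had 1 UMI in young members (30.6 CPM, 0.774 to 170) and was between 294 and 512 CPM in old ones. Vim, the intermediate filament vimentin, was at 397 CPM (212 to 680) in young and between 1114 and 2535 CPM in old members. Bgn and Dcn were also above the young interval in each old library, though Dcn was higher still in the young female, at 13423 CPM. Col1a1, C3 and Apoe were not, with Col1a1 at 948 CPM in young (644 to 1345) and between 614 and 1401 CPM in old members. Higher in young members than in any old library were Cxcl13, the chemokine that attracts B cells (7337 CPM against 454 or less), Igfbp5 (3760 CPM against 2154 or less) and the mesothelial gene Wt1 (581 CPM against 29.3 or less). All UMIs of these 3 genes came from the young male, with none in the 2 young female members. These intervals cover counting error only, 18 of the 20 young members came from 1 library, and the part of the mesothelial transcripts in these differences was not tested.

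The same comparison between the sets, which asks whether the difference between members and Pi16-set cells changed with age, passed for 4 of 7046 genes (0.0568%), all relatively higher in old members. Among them were Gsn, Gm10801 and Ccn2, named here after their values were seen. At an unadjusted p under 0.05 there were 480. The median of all genes in this comparison was 0.35 on the log2 scale, and 0.12 without normalisation factors, so a change is to be read against that shift. It rests on 18 members of 1 young library, assumed in the fit to vary like the old ones, and no gene passed without the 27-month library, without the 28-month library, without normalisation factors or with Mmp3 left out of the rule.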

How the data were processed

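Single-cell 3′ libraries (10x Genomics v3.1) of mouse pulmonary arteries were used, 6 in all. Per the study's methods, the authors used Cutadapt for trimming and STARsolo for alignment and counting (GRCm38.p6, release M22, versions not given in the sources used here). The deposited values are UMI counts per gene and barcode for all 6794880 possible barcodes, not filtered for cells, with totals of 6355125 to 50436562 UMIs per library. The files pair identifiers with symbols, which were used as given. Of 53647 identifiers, 52093 matched the annotation at hand without the version and 35 with it, so no coordinates were assigned to genes of the files. The RefSeq windows were matched by symbol, 4 of 4 genes.

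Here, cells were kept, assigned and summed per library and set as the report describes. Genes were tested if found in over 5% of the cells of both sets together in at least 3 libraries, with edgeR 4.0.16 (TMM, quasi-likelihood test, Benjamini-Hochberg adjustment) in R 4.3.3, and libraries needed at least 5 cells of each set. DESeq2 1.42.0 was an alternative. On simulated counts for this comparison (7061 genes, 200 of them changed), 92% of 2-fold and 100% of 4-fold changes were recovered, with 4 and 5 false calls. Shares were compared over libraries by an exact permutation test. Doublets, marked with scrublet in scanpy 1.11.5 (8 of 836 members), were kept in and left out as an alternative. Its automatic threshold marked under 0.5% of cells in 4 libraries, so the share expected from the number of cells was marked there.

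The members, gene lists and tests were chosen with earlier results of these data known. Genes named are the rule genes, listed genes and, for the set comparison, the 15 largest differences each way among genes past the threshold with the same direction in all 5 libraries and at least 100 UMIs, without gene models, mitochondrial or ribosomal protein genes. In the young male some of these directions rest on 1 or 2 UMIs. Nothing in the labels ties libraries to numbers of mice, though the study lists 1 old mouse of the age of each old library. The p-values measure only the spread between these libraries. A further young library was not analysed here. The values of 1 gene are not reported here.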

Additional observations from a re-analysis of the deposited data

Results flagged for a closer look

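Among 21 summed levels and shares examined over the 4 old libraries, 2 had 1 library far from the other 3, where chance flags about 1 in 20. Chemokines and cytokines summed to 10053 CPM in the 24-month members, led by Cxcl1, against 2011 at 20 months, 1843 at 27 months and 2590 at 28 months. The young libraries had 11708 CPM (male, led by Cxcl13) and 5872 CPM (female), so 24 months stood apart from the old libraries only. The receptor genes summed to 3220 CPM (3220.5) at 20 months against 5598, 5676 and 5607 CPM in the other old libraries, and to 3109 CPM in the young male.

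Of the 4 genes whose difference between the sets was not the same in the young male and the old libraries (edgeR, adjusted p under 0.05), 3 are given with their values on normalised library sizes. The young arm is 1 library of 18 members, 10 of them with 2 or more mesothelial UMIs, so age and that library cannot be told apart. Gsn had a change of 1.78 ± 0.30 on the log2 scale (adjusted p = 0.0186), with 2812 CPM in members and 8877 CPM in Pi16-set cells of the young male, and 15609 and 12966 CPM at 28 months. Gm10801, a gene model, had a change of 2.42 ± 0.41 (adjusted p = 0.0186). It was at 1966 and 8069 CPM in the young male, 4180 and 2296 CPM at 24 months and under 2 CPM in both sets at 27 months, so its level differed more between libraries than between sets. Ccn2, a matricellular protein, had no UMI among the 31518 of the young male members, where 3 UMIs equal 95.2 CPM on the deposited totals, and 23 among the 87483 of Pi16-set cells there. It was at 419 and 232 normalised CPM at 28 months. Its fitted change of 11.96 (adjusted p = 0.0463) depends on the prior count and is no measure of size.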

How the results depend on the processing

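The count of 792 genes between the sets stayed within 1.5 times under 12 alternatives and moved under the following. DESeq2 called 387 genes, 383 of them among the 792, and all 792 kept their direction. It was 505 with fibroblasts holding no UMI of the other cell types' genes, 176 with cells thinned to 500 UMIs (fewer genes tested), and 40 with no replicate block (no library block). Leaving out 1 library gave 217 to 825. The 30 genes named by size kept their direction wherever tested, 8 of them lost the call without the block, and Tmem176b also at 1000 UMIs. The 4 genes of the age difference became 9 with edgeR's own filter, 29 with no gene filter, 0 without TMM, 1 with DESeq2, 9 with at least 1000 UMIs and 500 genes, 14 without the other cell types' genes, 20 with a set lead of at least 2 UMIs, 0 with Mmp3 left out, 17 with at least 1 cell per set, and 0 to 16 with 1 library left out. The cause was not tested. Old against young members was not tested at the set minimum of 5 members, which 1 young library reached. With at least 1 cell per library 6 of 7363 genes passed, all lower in old (1 with the barcode-sharing libraries as a covariate), and 0 of 7319 with at least 10 cells by edgeR (543 at an unadjusted p under 0.05), where the young arm is 1 library assumed to vary like the old ones, too few to show stability.

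The difference in set share was 16.6 to 35.8 percentage points under the alternatives other than leaving out a library, lowest with thinning and Mmp3 left out together, and 28.4 to 38.3 with 1 library left out. The difference in fibroblast share was 4.50 (thinned) to 11.2 points. All kept their direction. No paired analysis was possible because the labels give young and old samples no shared replicate numbers; the library block above pairs the sets, not the ages. The alternatives without Mmp3 for gene counts, without shared barcodes, without mesothelial or smooth muscle UMIs, and with thinning and Mmp3 together were chosen after seeing the data. Depth limits the young members, where 3 UMIs equal 91.7 CPM.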

Other observations

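Immediate early and heat shock genes summed to 5923 CPM in the 28-month members, the lowest of the 6 libraries, and to 16630 CPM at 27 months, 16921 at 20 months, 20369 in the young male, 24987 at 24 months and 29362 in the young female. Pi16-set cells had the same lowest library, with 5251 CPM at 28 months against 12586 or more elsewhere.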
